A study of Mus musculus with 2 samples.

Results

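The miR-29 family was examined in the embryonic mouse midbrain as the 4 loci Mir29a, Mir29b-1, Mir29b-2 and Mir29c, chosen by gene symbol from the 1973 loci of the gene count tables. All 4 had a row. The libraries were made from RNA under 30 nt of whole midbrain from mice of the strain B6NCrl at embryonic day 13.5, with male and female embryos pooled and no treatment or engineered allele named in the labels. There was 1 group of 2 biological replicates, with 1 library each. The samples share a donor ID in the labels, and nothing says how far the pooled embryos were independent. Tests between the libraries set their difference against counting error only, and that difference may be partly technical.

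MicroRNAs of the miR-29 family guide Argonaute proteins to messages with a matching site, among them those of collagens and other matrix proteins, of the DNA methyltransferases DNMT3A and DNMT3B, and, in neurons, of pro-apoptotic BH3-only proteins. In mouse brain the family is known for low levels in the embryo and a rise after birth, and it is abundant in adult neurons and astrocytes. With 1 age in the data, no change with age could be measured.

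The 4 hairpins form 2 pairs. On mm10 (GRCm38), Mir29a (ENSMUSG00000065610.1) lies on the minus strand of chromosome 6 from 31062660 to 31062747, and Mir29b-1 (ENSMUSG00000065604.1 in the tables) lies 275 nt away, from 31063023 to 31063093. Mir29a overlaps no other gene annotated in GENCODE M21, whereas Mir29b-1 overlaps the long noncoding transcript Gm27019 by 2 nt. Mir29b-2 (ENSMUSG00000065412.2 in the tables) lies on the plus strand of chromosome 1 from 195037040 to 195037120, and Mir29c (ENSMUSG00000065548.1) follows after 426 nt, from 195037547 to 195037634. Both lie within an exon of the noncoding transcript A330023F24Rik and opposite a UTR of Cd46, a gene on the other strand. For Mir29b-1 and Mir29b-2 the later annotation has a newer version of the gene ID.

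**Figure D1:**
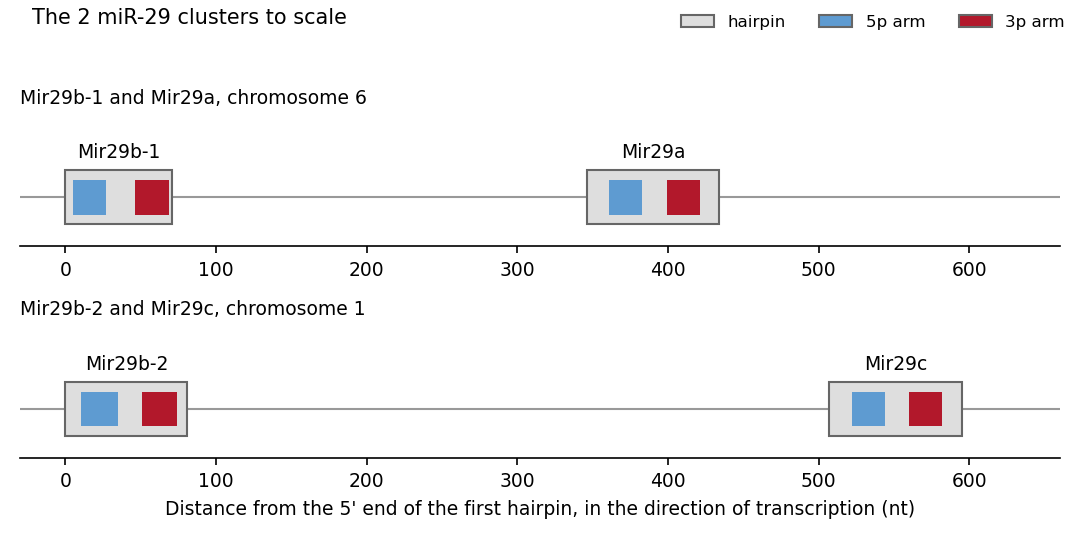
Map of both miR-29 pairs to scale, with the distance in nt from the 5′ end of the first hairpin along the direction of transcription; grey boxes are hairpins, blue boxes 5p arms and red boxes 3p arms. The hairpins of a pair are 275 nt apart on chromosome 6 and 426 nt apart on chromosome 1, and in both pairs the miR-29b hairpin comes first.

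The hairpins are shown because what sets them apart decides which reads each locus could be credited with. They are RefSeq sequences on GRCm38.p6, 5′ to 3′, and capitals mark the mature 3p arm.
Mir29a: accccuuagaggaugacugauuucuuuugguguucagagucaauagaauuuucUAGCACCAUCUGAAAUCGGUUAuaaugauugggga
Mir29c: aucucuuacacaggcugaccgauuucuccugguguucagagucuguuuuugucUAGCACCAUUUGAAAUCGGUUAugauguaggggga
Mir29b-1: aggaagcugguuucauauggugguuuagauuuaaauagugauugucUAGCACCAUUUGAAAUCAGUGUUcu
Mir29b-2: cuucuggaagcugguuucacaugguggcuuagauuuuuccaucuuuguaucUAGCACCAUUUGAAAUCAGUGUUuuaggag

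The mature 3p arms follow with the seed in capitals. The seed, bases 2 to 8, is the stretch that pairs with a target.
miR-29a-3p: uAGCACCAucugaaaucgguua
miR-29c-3p: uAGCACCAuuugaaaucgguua
miR-29b-3p: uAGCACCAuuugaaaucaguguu

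All 4 hairpins carry the same 3p seed, AGCACCA, and of the 1738 mature mouse microRNA entries in the RefSeq table only these 4 have it. Counted from 1 at the 5′ end, miR-29c-3p differs from miR-29a-3p at 1 base, C10U. Over the 22 nt they share, miR-29b-3p differs from miR-29c-3p at 3 bases, G18A, U21G and A22U, and from miR-29a-3p at C10U as well. The differences within the family thus lie outside the seed. The 5p arms have 4 different seeds, and they tell the miR-29b hairpins apart.
miR-29a-5p: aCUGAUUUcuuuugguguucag
miR-29c-5p: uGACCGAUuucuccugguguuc
miR-29b-1-5p: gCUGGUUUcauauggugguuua
miR-29b-2-5p: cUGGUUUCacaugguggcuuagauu

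The 23 nt of miR-29b-3p are identical at Mir29b-1 and Mir29b-2, within an exact shared run of 25 nt. A read of this arm matches both loci, and the tables keep reads with several matches in a row of their own and not in any locus. The longest exact run that Mir29a shares with any of the 1004 other hairpins in the table was 14 nt, with Mir29c. Mir29c shares 22 nt with Mir29b-1, which takes in the start of its 3p arm but ends before the distinguishing base 18. Of the windows of 22 nt in each hairpin, 0 of 67 occurred in another hairpin for Mir29a, 1 of 67 for Mir29c, 5 of 50 for Mir29b-1 and 4 of 60 for Mir29b-2. This comparison covers annotated hairpins and not the genome, which was not used here.

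The libraries held 5093743 (replicate 1) and 2935841 (replicate 2) counts on the strand of a gene, and reads with several matches were 34.4% and 37.7% of all reads. The 4 loci together received 1296 counts in replicate 1 and 679 in replicate 2. Levels are given as CPM, which scales the same-strand counts to a fixed library total over all loci. Summed over the family these were 254 and 231 CPM, or 0.0243% ± 0.00164 of all counts (SD, n = 2). The 95% exact Clopper-Pearson intervals of the share, 0.0241 to 0.0269% in replicate 1 and 0.0214 to 0.0249% in replicate 2, overlapped. Such intervals cover counting error only. As the tables hold no molecular identifiers, reads and not molecules were counted, and the intervals may be too narrow. In bulk tissue, fewer cells with a microRNA and less of it per cell cannot be told apart.

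Mir29a and Mir29c held nearly all of the family's counts, at similar levels, and the miR-29b loci held almost none. Mir29a, the first hairpin by level, had 635 counts or 125 CPM in replicate 1 and 375 counts or 128 CPM in replicate 2, a mean of 126 ± 2.17 CPM (SD, n = 2). Its counting intervals, 115 to 135 CPM and 115 to 141 CPM by the exact Poisson method, were wider than this SD. Mir29c, which makes the mature form 1 base away, had 651 counts or 128 CPM in replicate 1 and 297 counts or 101 CPM in replicate 2, a mean of 114 ± 18.8 CPM. The means of Mir29a and Mir29c differed by less than the SD of Mir29c, so their order is not resolved. Their order also turned between the libraries, with a ratio of Mir29a to Mir29c of 0.975 (exact interval 0.873 to 1.09) in replicate 1 and 1.26 (1.08 to 1.48) in replicate 2.

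Mir29b-2 had 6 counts or 1.18 CPM in replicate 1 (exact Poisson interval 0.432 to 2.56) and 5 counts or 1.70 CPM in replicate 2 (0.553 to 3.97). Mir29b-1 had 4 counts or 0.785 CPM in replicate 1 (0.214 to 2.01) and 2 counts or 0.681 CPM in replicate 2 (0.0825 to 2.46). The intervals of these loci overlap in each library, and the values lie near the level of 3 counts, which is 0.589 CPM in replicate 1 and 1.02 CPM in replicate 2. Within the chromosome 6 pair, Mir29a had 159 times the counts of Mir29b-1 in replicate 1 (61.7 to 584) and 188 times in replicate 2 (51.5 to 1554). Within the chromosome 1 pair, Mir29c had 109 times the counts of Mir29b-2 in replicate 1 (49.6 to 297) and 59.4 times in replicate 2 (25.2 to 184). These counts leave out the shared 3p arm where its reads were kept apart as matching several places, so they are not the level of mature miR-29b, and the ratios are not ratios of mature microRNAs. No opposite-strand read was counted at any of the 4 loci in either library, including those that face Cd46.

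**Figure D2:**
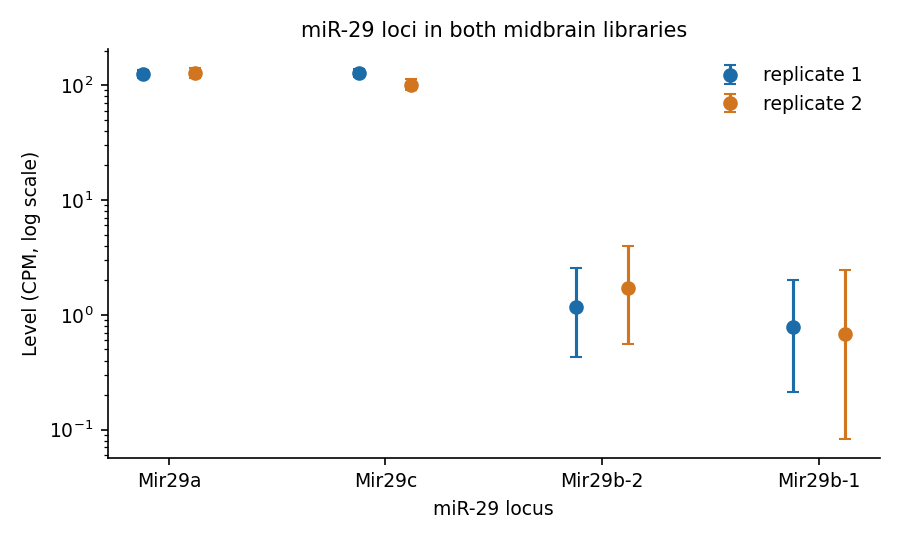
Level of each miR-29 locus in CPM on a log axis, with replicate 1 in blue and replicate 2 in orange; points are single libraries and bars are 95% exact Poisson intervals. Mir29a and Mir29c stand between 101 and 128 CPM, and Mir29b-2 and Mir29b-1 between 0.681 and 1.70 CPM.

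A CPM is not divided by length, because a read of a mature microRNA spans the whole molecule. Divided by hairpin length, the means were 143 CPM per 100 nt for Mir29a, 130 for Mir29c, 1.78 for Mir29b-2 and 1.03 for Mir29b-1, in the same order.

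RefSeq mature entries could be matched for 916 of the 1973 loci. Like Mir29b-1 and Mir29b-2, 53 of them have 1 arm identical to that of another locus and another arm that is not, with a median mean level of 41.2 CPM. Of these 53, 21 reached 100 CPM in both libraries and 7 had no count, and 10 lay below Mir29b-1 and 13 below Mir29b-2. A further 34 loci share each listed mature sequence with another locus, and of these 25 had no count in either library and 5 reached 100 CPM in both, with a median of 0 CPM. Like Mir29a and Mir29c, 829 share no arm. Of these, 161 reached 100 CPM in both libraries and 274 had no count, with a median of 0.759 CPM.

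Among all loci, Mir29a stood at place 191 of 1973 by mean CPM (198 in replicate 1 and 187 in replicate 2) and Mir29c at place 199 (196 and 205). The median of the 466 loci with at least 10 counts over both libraries was 53.0 CPM, so Mir29a and Mir29c lay above it. Mir29b-2 stood at place 442 (460 and 416) and Mir29b-1 at place 524 (498 and 511). The order within such low counts is not resolved, and 3 other loci had exactly the same pair of counts as Mir29b-1 and another 3 the same as Mir29b-2.

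In the order of mean CPM over the 2 libraries, Mir329 at 126 CPM, Mir500 at 128 and Mir221 at 131 lay directly above Mir29a. Mir329 and Mir500 were 0.0029 and 0.02 above it on the log2 scale. Directly below it came Mir412 at 124 CPM, and Mirlet7a-1 and Mir30b at 122 CPM. Mir877 at 115 CPM, Mir679 at 116 and Mir670 at 118 lay directly above Mir29c, and Mir216b at 112, Mir345 at 106 and Mir673 at 105 CPM directly below it. Around Mir29b-2 lay Mir511, Mir3088, Mir3094, Gm25745, Mir5619 and Gm27920, at 1.44 to 1.47 CPM, and around Mir29b-1 lay Mir1960, Mir7064, Mir6998, Mir6997, Mir7054 and Mir6539, at 0.733 to 0.759 CPM. Likeness here is of level only.

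**Figure D3:**
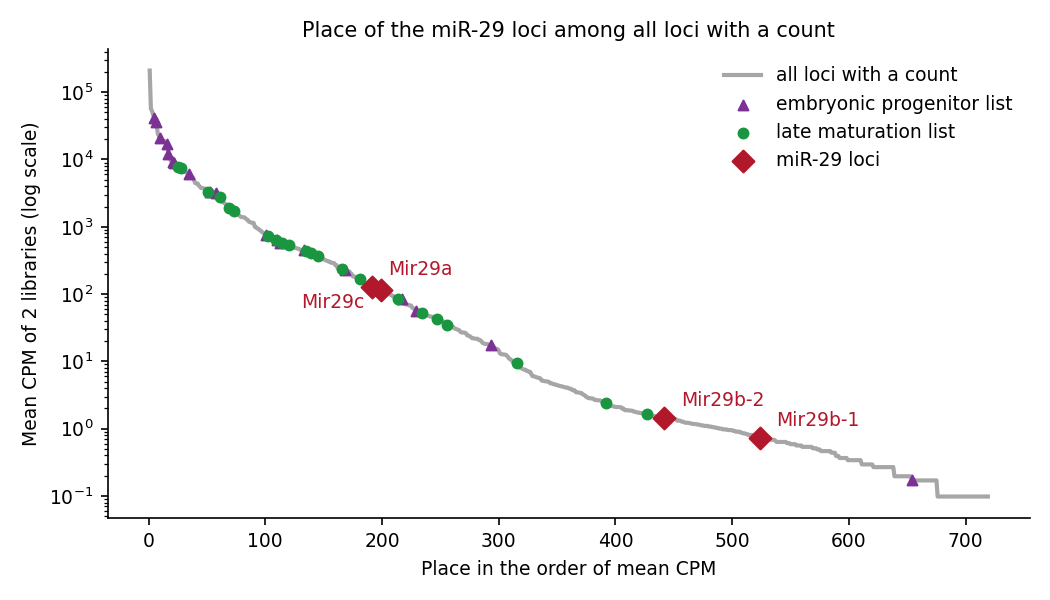
Mean CPM of both libraries on a log axis against the place in the order of mean CPM, for all loci with a count (grey line), with the miR-29 loci (red diamonds), the late maturation list (green circles) and the embryonic progenitor list (purple triangles). Mir29a and Mir29c stand at places 191 and 199, and Mir29b-2 and Mir29b-1 at places 442 and 524.

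To place the family beside other microRNAs of brain maturation, a list of 23 loci known from maturing neurons and glia was used, of which 22 had a row. Of these, 15 lay above Mir29a and Mir29c by mean CPM and 7 below both. Among the 466 tested loci, 190 lay above Mir29a and 198 above Mir29c. All 22 lay above Mir29b-1 and Mir29b-2, as did 466 and 441 of the 466 tested loci. Since all 22 had passed the count minimum, their place above Mir29b-1 was fixed in advance. The list's median was 417 CPM, against 53.0 CPM over the tested loci. The median of the 4 miR-29 loci, 58.0 CPM, falls in the gap between Mir29c at 114 CPM and Mir29b-2 at 1.44 CPM, so it is the level of no locus. At least 100 CPM in both libraries was reached by 15 of the 22 loci on the list, by 2 of the 4 miR-29 loci and by 43.3% of the tested loci.

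The list was led by Mir137, a regulator of neuronal differentiation, at 7831 ± 2028 CPM, and by Mir23b at 7383 ± 176 CPM. Mir22 followed at 3337 ± 389 CPM and Mir139 at 2741 ± 126 CPM (SD, n = 2 each). Mir137 stood 62.1 times above the mean of Mir29a and Mir139 21.7 times above it. The oligodendrocyte microRNAs of the list ran from 1704 ± 181 CPM for Mir219a-2 and 730 ± 10.6 CPM for Mir219a-1 to 168 ± 9.76 CPM for Mir338, all above Mir29a. Of the pair induced by neuronal activity, Mir132 had 433 ± 18.3 CPM, above Mir29a, and Mir212 had 35.1 ± 1.46 CPM, below it. Mir34a, a p53 target, had 52.8 ± 6.71 CPM. The Mir124a loci had 1.64 to 9.31 CPM, and their mature arm, like that of miR-29b, is made from several loci. For every locus on the lists used here, Mir219a-1 and Mir219a-2 included, reads that match several places are left out. The levels given for the lists are thus those of loci and not of mature microRNAs.

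Of the 19 loci on the list known from embryonic progenitors, 15 lay above Mir29a and Mir29c by mean CPM and 4 below both, with no test of the levels. Over the 466 tested loci, 190 lay above Mir29a and 198 above Mir29c. Mir17, from a cluster known for driving cell proliferation, had 41984 ± 6815 CPM, Mir130a 35718 ± 1411, Mir93 20765 ± 1745 and Mir20a 16879 ± 2464 CPM (SD, n = 2 each). The 4 below were Mir19a at 83.6 CPM and Mir19b-1 at 17.3 CPM, from the cluster that holds Mir17 and Mir20a, Mir302c at 55.4 CPM and Mir367 at 0.170 CPM. Together the 4 miR-29 loci held 0.0254% and 0.0231% of the counts in replicates 1 and 2. The late maturation list held 3.04% and 2.81%, and the progenitor list 16.7% and 15.4%.

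The only difference the design allows to be tested is that between the libraries. For each locus the split of its counts was set against the split of the TMM-scaled library sizes by a two-sided exact binomial test, adjusted over all 466 tested loci by the Benjamini-Hochberg method. Mir29c was higher in replicate 1 by 0.27 on the log2 scale (adjusted p = 0.0218, exact test), a fold of 1.21 with an exact interval of 1.05 to 1.39. Mir29a had a log2 ratio of replicate 1 to replicate 2 of -0.10 (adjusted p = 0.448, exact test, fold 0.932 with an interval of 0.819 to 1.06) and did not pass. Mir29b-2 had -0.44 (adjusted p = 0.707, exact test) with an interval of the fold of 0.168 to 2.74. Mir29b-1, with 6 counts over both libraries, fell under the count minimum and had an interval of 0.158 to 12.2.

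Of all tested loci, 38.0% passed this test, 18.7% higher in replicate 1 and 19.3% higher in replicate 2, so 1 of 3 tested miR-29 loci is a share near the background. With total counts in place of TMM scaling, 61.9% of the calls were higher in replicate 1, against 49.2% with TMM. Among the 63 tested loci at 50 to 200 CPM, 25 passed, and 23, Mir29c included, had a log2 ratio at least as far from 0 as that of Mir29c. With replicate 1 thinned to the depth of replicate 2, Mir29c no longer passed (log2 ratio 0.26, adjusted p = 0.0523, exact test). Of the late maturation list, 4 loci passed as higher in replicate 1 and 6 as higher in replicate 2, and the other 12 tested loci did not pass, with a median log2 ratio of -0.03, against -0.0041 over all tested loci and -0.10 over the 3 tested miR-29 loci.

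**Figure D4:**
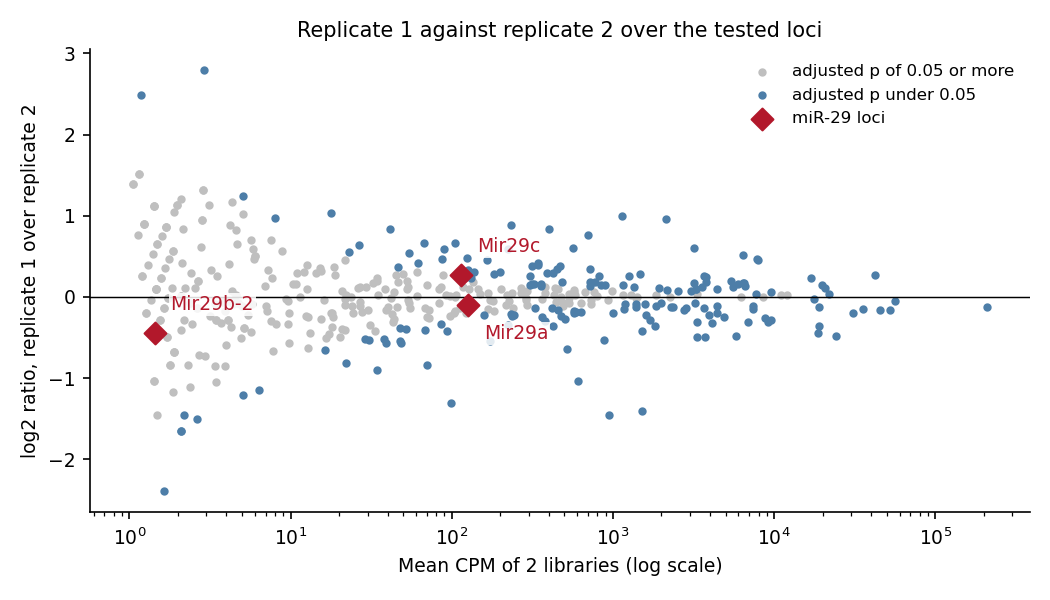
The log2 ratio of replicate 1 to replicate 2 against mean CPM on a log axis for the 466 tested loci, blue where the adjusted p is under 0.05 and grey where it is not, with the 3 tested miR-29 loci as red diamonds. Mir29c (0.27) and Mir29a (-0.10) lie within the cloud of loci of like level.

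The make-up of the family's counts, which needs no scaling between libraries, shifted between Mir29a and Mir29c. Mir29c held 50.2% of the miR-29 counts in replicate 1 (Clopper-Pearson interval 47.5 to 53.0%) and 43.7% in replicate 2 (40.0 to 47.6), a difference of 6.49 percentage points. Mir29a held 49.0% in replicate 1 (46.2 to 51.8) and 55.2% in replicate 2 (51.4 to 59.0). Both differences had an adjusted p of 0.0183 by two-sided Fisher's exact test over the 4 loci, and they describe 1 shift, since the miR-29b loci together held 0.772% of the family's counts in replicate 1 and 1.03% in replicate 2. Set against each other alone, the odds of Mir29a over Mir29c in replicate 1 were 0.773 times those in replicate 2 (p = 0.00764, Fisher's exact test). The shares of Mir29b-2, 0.463% and 0.736%, and of Mir29b-1, 0.309% and 0.295%, did not pass (adjusted p = 0.702 and 1 by Fisher's exact test). The test compares 2 libraries and counts reads as independent, so it takes in no spread between animals.

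**Figure D5:**
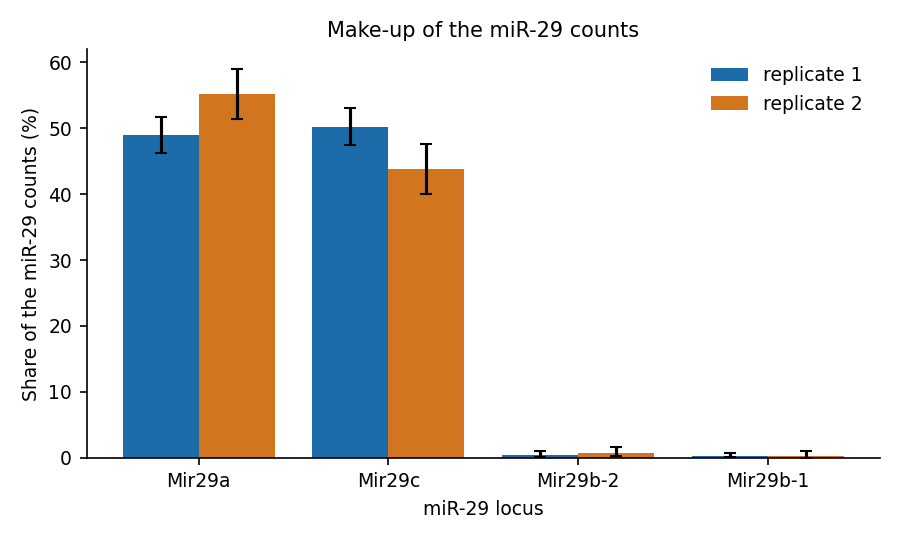
Share of the family's counts held by each miR-29 locus in percent, with replicate 1 in blue and replicate 2 in orange; bars are single libraries and whiskers 95% exact Clopper-Pearson intervals. Mir29c holds 50.2% in replicate 1 and 43.7% in replicate 2, and Mir29a 49.0% and 55.2%.

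Counts of marker loci called between the libraries are given for other cell types beside the 18.7% of all tested loci called higher in replicate 1 and the 19.3% called higher in replicate 2. With 1 to 7 tested loci a list, nothing particular to a cell type is read from them. The mural and mesenchymal list, led by Mir143, held 0.897% of the counts in replicate 1 and 1.08% in replicate 2, and 4 of the 6 tested passed as higher in replicate 2. Its 7 loci ran from 0.268 CPM for Mir199a-1 to 5809 CPM for Mir143. The endothelial Mir126a held 1.63% and 2.12% and passed as higher in replicate 2. The choroid plexus and multiciliated list, led by Mir449a, held 0.161% and 0.321%, with 2 of 5 tested loci higher in replicate 2. The oligodendrocyte list, led by Mir219a-2, held 0.249% and 0.272%, with 1 of 3 higher in replicate 2. The leukocyte list, led by Mir223, held 0.0359% and 0.0404%, with 2 of 4 higher in replicate 2, and the erythroid list, led by Mir451a, 0.00934% and 0.00869%, with 1 of 3 higher in replicate 1. Their part in the shift between Mir29a and Mir29c was not tested. Of the neural list, 3 of 7 loci with a row (42.9%) reached 100 CPM in both libraries, against 43.3% of the tested loci. This share is near the background and so does not check the tissue. The list's median was 9.31 CPM, against 53.0 CPM over the tested loci. Of its 7 tested loci, 1 passed as higher in replicate 1 and 1 as higher in replicate 2. The neural list was led by Mir92b, also on the progenitor list, at 9214 ± 1094 CPM. All 7 loci had counts in both libraries, but each had passed the count minimum, so this does not check the tissue either.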

How the data were processed

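The authors deposited 1 table of raw read counts per gene for each library, made on mm10 with annotation M4, per the labels and the notes beside each table. The aligner, trimming and read filters were not given in the sources used here. The tables have no header. The count without regard to strand equals the sum of the other count columns in every gene row, and from this the columns were read as unstranded, same-strand and opposite-strand counts. Same-strand counts were used, without the 4 leading rows for unmapped (16.1% and 15.7% of all reads), multimapping (34.4% and 37.7%), unassigned (3.79% and 3.80%) and ambiguous reads (0). Counts are per hairpin, so arms were not told apart.

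Names and positions came from GENCODE M21, which matched 1894 of 1973 IDs with the version dropped, 1815 of them with the same version. Sequences came from RefSeq (GRCm38.p6). With 1 group, edgeR's quasi-likelihood test has no contrast, so edgeR 4.0.16 (R 4.3.3) served for TMM factors (1.02 and 0.977) and loci with at least 10 counts over both libraries were tested by the exact conditional binomial test at an adjusted p of 0.05 (scipy 1.17.1, Python 3.11.15). The test was checked on simulated counts with counting error only, so the check cannot tell how the test behaves where libraries differ by more than that. Log2 ratios use a pseudocount of 0.5 CPM on TMM-scaled values. Alternatives included DESeq2 1.42.0 size factors, total counts, other count minimums, unstranded counts and thinning.

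The members, the 9 lists beside them and the tests were chosen with earlier results of these data known. Named loci are the 4 members, the 3 loci above and below each in mean CPM, the 4 highest of the late maturation and progenitor lists and the highest of each other list. Mir338, Mir219a-1, Mir132, Mir212, Mir34a, the Mir124a loci, Mir19a, Mir19b-1, Mir302c, Mir367 and Mir199a-1 were named after their values were seen.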

Additional observations from a re-analysis of the deposited data

How the results depend on the processing

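No paired analysis was possible because the series holds 1 group. Mir29a kept its direction and did not pass under 8 alternatives (log2 ratio -0.11 to -0.03). Of these, the required fold can only remove calls and the other pseudocount does not enter the test, so neither could make Mir29a pass. Mir29c stayed higher in replicate 1 under 8 (0.26 to 0.34, adjusted p 0.00284 to 0.0523 by the exact test). Its call ended with thinning (0.26), where fewer reads enter. It also ended where a fold of at least 1.5 was required (0.27), which its fold of 1.21 fixed in advance. That requirement left 34 of 177 calls over all loci and 2 of 10 on the late maturation list. The alternatives without it gave 164 to 183 calls over all loci. The share of tested loci called depended on the count minimum. With no minimum 174 of 719 loci passed (24.2%), and with at least 50 counts 174 of 331 (52.6%), against 38.0% in the main setting. The shift in make-up between Mir29a and Mir29c still passed with replicate 1 thinned (adjusted p = 0.0333, Fisher's exact test), which draws from the same reads. Unstranded counts could not change it, since no opposite-strand read was counted at any of these loci. With multimapping reads in the denominator the family held 0.0134% of reads, since the denominator grew, and without replicate 1 or replicate 2 it held 0.0231% or 0.0254%. Depth limits the miR-29b loci. Mir29b-2, with 11 counts in all, did not pass and its interval spans 0.168 to 2.74-fold, and Mir29b-1, with 6, was under the count minimum.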
